A study of Mus musculus and Mus spretus with 18 samples.

Results

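Genes of the brain endothelium and of the blood-brain barrier were examined in whole brain over postnatal development. They were chosen by name, as 10 markers of endothelial cells, their growth factor receptors and their transporters. Of these 10 genes, 6 had values among the 12346 genes of the deposited table and were analysed: Slc2a1 (ENSMUSG00000028645), Abcb1a (ENSMUSG00000040584), Mfsd2a (ENSMUSG00000028655), Flt1 (ENSMUSG00000029648), Pecam1 (ENSMUSG00000020717) and Cdh5 (ENSMUSG00000031871). Cldn5, Kdr, Slco1a4 and Slco1c1 were not analysed here.

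The brains came from Mus spretus, strain SPRET/EiJ, and from Mus musculus, strain WSB/EiJ, called spretus and musculus from here on. Both are wild-derived inbred strains, and each stands for its species here. All animals were male, and brains lacked the olfactory bulb. They were taken within the first day after birth (day 0), on day 14 or on day 56. Each of the 6 groups of species and age held 3 animals with 1 array each, and no treatment was given.

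The endothelial cells of brain capillaries are joined by tight and adherens junctions, so that little passes between them. Nutrients cross the cells through transporters, foreign compounds are pumped back into the blood, and transport in vesicles is kept low. In mice, vessels grow into the brain before birth and the capillary bed goes on growing after it.

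The genes fall into 3 roles. Slc2a1 encodes GLUT1, the glucose transporter of the barrier, which is also found in glia. Abcb1a encodes P-glycoprotein, an efflux pump for foreign compounds. Mfsd2a encodes the transporter that carries the omega-3 fatty acid DHA, bound to lysophosphatidylcholine, into the brain, and it holds down vesicular transport across the cells. Flt1 encodes a receptor of vascular endothelial growth factor that can act as a trap for it. Pecam1 and Cdh5 encode cell adhesion proteins of endothelial junctions, and PECAM1 is also found on platelets and leukocytes.

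The values are log2 expression values per gene and array, normalized before deposit. Array medians lay between 6.52 and 6.56, and arrays of 1 group correlated across genes with r of 0.992 to 0.996. A gene was called where limma's two-sided test gave an adjusted p under 0.05 over all 12346 genes. Since whole brain was measured, a lower number of endothelial cells and less RNA in each of them cannot be told apart. Markers of other brain and blood cells could not be named in the table, so their part in the results was not tested. The sources used here name no batch.

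Between birth and day 14 the genes of both transporters of nutrients, of the efflux pump and of the growth factor receptor rose in both species. In spretus 4 of the 6 genes rose and none fell, while of all genes 39.5% were called, 19.2% higher and 20.3% lower. In musculus the same 4 genes rose and none fell, while of all genes 41.4% were called, 19.6% higher and 21.8% lower. The median log2 change of the 6 genes was 0.79 in spretus and 0.99 in musculus, where the median over all genes was 0.03 and -0.00184. The genes that rose in both species were 14.4% of all genes.

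The promoters of these 4 genes are shown because the genes rose together. Each runs from 250 bases before to 50 bases after the start of the gene, 5′ to 3′, in the RefSeq annotation of build GRCm38.p6. That build is the genome of C57BL/6J, which is neither of the strains measured. Of the 6 genes with values, 4 were in the promoter table, and Pecam1 and Cdh5 were not among them. Capitals mark matches to 4 short motifs described after the sequences. Slc2a1 lies at chr4:119108495-119108794 on the plus strand and Abcb1a at chr5:8566841-8567140 on the plus strand. Mfsd2a lies at chr4:122961139-122961438 on the minus strand and Flt1 at chr5:147725962-147726261 on the minus strand.
Slc2a1: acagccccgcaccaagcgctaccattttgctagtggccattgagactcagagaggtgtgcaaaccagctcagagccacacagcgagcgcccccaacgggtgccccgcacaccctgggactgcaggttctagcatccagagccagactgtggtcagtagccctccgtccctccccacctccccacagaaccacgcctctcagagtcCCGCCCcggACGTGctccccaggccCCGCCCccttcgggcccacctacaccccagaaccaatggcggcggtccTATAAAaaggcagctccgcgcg
Abcb1a: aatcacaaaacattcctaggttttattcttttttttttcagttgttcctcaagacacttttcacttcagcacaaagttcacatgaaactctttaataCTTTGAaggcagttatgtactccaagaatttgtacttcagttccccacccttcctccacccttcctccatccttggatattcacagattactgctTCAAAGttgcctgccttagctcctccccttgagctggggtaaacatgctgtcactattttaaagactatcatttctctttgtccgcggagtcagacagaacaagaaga
Mfsd2a: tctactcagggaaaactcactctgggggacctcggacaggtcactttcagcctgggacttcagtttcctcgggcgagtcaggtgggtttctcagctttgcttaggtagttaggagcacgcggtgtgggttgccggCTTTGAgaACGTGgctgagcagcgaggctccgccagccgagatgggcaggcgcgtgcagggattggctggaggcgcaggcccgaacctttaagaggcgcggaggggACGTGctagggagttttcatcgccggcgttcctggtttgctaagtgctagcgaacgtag
Flt1: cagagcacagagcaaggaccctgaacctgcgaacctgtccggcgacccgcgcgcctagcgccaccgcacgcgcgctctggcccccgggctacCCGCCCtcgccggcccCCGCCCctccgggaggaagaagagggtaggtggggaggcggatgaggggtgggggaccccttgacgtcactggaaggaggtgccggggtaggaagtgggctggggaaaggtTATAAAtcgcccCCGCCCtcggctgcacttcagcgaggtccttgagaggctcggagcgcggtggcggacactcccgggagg

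The 4 sequences differ in base composition. The share of G and C was 65.3% in Slc2a1, 60.3% in Mfsd2a and 70.7% in Flt1, but 40.3% in Abcb1a. Of all 32851 promoter windows, 10.7% had a lower share of G and C than Abcb1a, and 91.4% had a lower share than Flt1. No motif searched was found in all 4 windows. Both strands were searched, no match overlapped another, and positions count from the start of the gene.

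The GC box GGGCGG matched in Slc2a1 at -45 and -20, and in Flt1 at -158, -142 and -19, and 35.7% of all windows hold it. The TATA box TATAAA matched in Flt1 at -31, and in Slc2a1 at 29, which is after the annotated start, and 13.6% of windows hold it. CTTTGA, a core of the sites of the Wnt pathway's TCF/LEF factors, matched in Abcb1a at -153 and -58 and in Mfsd2a at -115, and 16% of windows hold it. ACGTG, a core of the sites of the hypoxia-inducible factors, matched in Slc2a1 at -36 and in Mfsd2a at -107 and -9, and 19.6% of windows hold it. CCGGAA, a site of the ETS factors, was in none of the 4 windows and is in 14.9% of all windows. These matches describe the letters only.

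**Figure D1:**
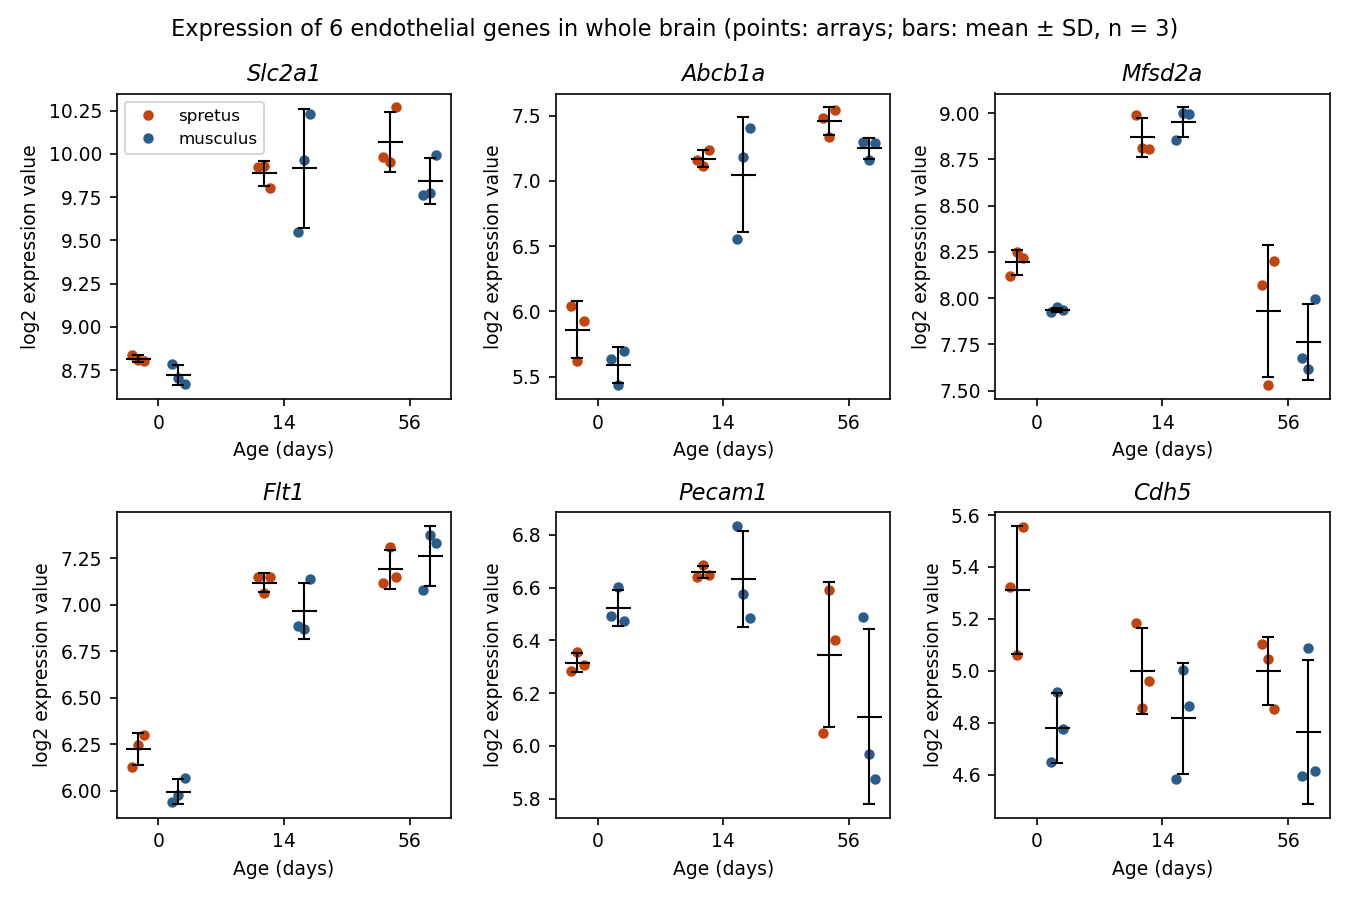
Log2 expression values (vertical axis) of the 6 genes at days 0, 14 and 56 (horizontal axis) in spretus and musculus; points are arrays, and bars give the mean and SD of 3 arrays. Slc2a1, Abcb1a and Flt1 are low at day 0 and high at days 14 and 56, and Mfsd2a is high at day 14 alone. Pecam1 of spretus is also highest at day 14, by a smaller step, and the ages of Cdh5 overlap.

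Slc2a1 was at a higher percentile of genes than the other 5, above 81.0 to 93.7% of all genes depending on the group. In spretus its log2 values were 8.84, 8.81 and 8.80 on day 0, 9.93, 9.93 and 9.81 on day 14, and 9.98, 9.95 and 10.27 on day 56. In musculus they were 8.79, 8.70 and 8.67 on day 0, 9.55, 9.96 and 10.23 on day 14, and 9.76, 9.78 and 9.996 on day 56. In both species all day 0 values lay well below all later ones, and the musculus day 14 arrays were more widely spread than the spretus ones.

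From day 0 to day 14 the Slc2a1 level rose by 1.07 ± 0.13 in spretus (log2, SE; limma, adjusted p = 2.99e-06), or 2.10-fold. The rise in musculus was 1.20 ± 0.13, or 2.29-fold (limma, adjusted p = 7.38e-07). After day 14 the difference was 0.18 in spretus (95% interval -0.09 to 0.46) and -0.07 in musculus (-0.35 to 0.20), and neither passed the test.

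Abcb1a began in the lower part of the range of genes and had a larger rise. In spretus its log2 values were 6.04, 5.62 and 5.92 on day 0, 7.16, 7.12 and 7.24 on day 14, and 7.48, 7.34 and 7.55 on day 56. In musculus they were 5.64, 5.43 and 5.69 on day 0, 6.56, 7.18 and 7.41 on day 14, and 7.30, 7.16 and 7.29 on day 56. Day 0 stood apart from both later ages in either species, and musculus day 14 replicate 1 was the low array of its group.

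The log2 rise of Abcb1a to day 14 was 1.31 ± 0.16 in spretus, or 2.48-fold (limma, adjusted p = 2.89e-06). It was 1.46 ± 0.16 in musculus, or 2.75-fold (limma, adjusted p = 7.30e-07). Only 3.41% of genes in spretus and 3.22% in musculus had a larger absolute change over this step. By day 56 the level was 3.02-fold that of day 0 in spretus and 3.17-fold in musculus. The step after day 14, of 0.28 in spretus and 0.20 in musculus, did not pass the test in either species (adjusted p = 0.307 and 0.467). Abcb1a has a close paralog, Abcb1b, and whether the probes tell them apart was not tested.

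Flt1 followed the same course, with a pooled SD between arrays of 0.11 on the log2 scale, against 0.17 for Slc2a1 and 0.22 for Abcb1a. In spretus its log2 values were 6.13, 6.25 and 6.30 on day 0, 7.15, 7.06 and 7.15 on day 14, and 7.12, 7.31 and 7.15 on day 56. In musculus they were 5.94, 5.98 and 6.07 on day 0, 6.89, 6.87 and 7.14 on day 14, and 7.08, 7.38 and 7.33 on day 56. No day 0 value reached the range of the later ages.

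Up to day 14 the level of Flt1 rose by 0.89 ± 0.10 in spretus, or 1.86-fold, and by 0.97 ± 0.10 in musculus, or 1.96-fold (log2, SE; limma, adjusted p = 6.43e-07 and 2.13e-07). From day 14 to day 56 the musculus difference of 0.30 (95% interval 0.10 to 0.50) just missed the threshold (adjusted p = 0.0511). It passed without musculus day 14 replicate 3 (0.39, adjusted p = 0.0225) and without musculus day 56 replicate 1 (0.39, adjusted p = 0.0208). It did not pass without musculus day 14 replicate 1 (0.26, adjusted p = 0.146) or replicate 2 (0.25, adjusted p = 0.178). Nor did it pass without musculus day 56 replicate 2 (0.24, adjusted p = 0.179) or replicate 3 (0.26, adjusted p = 0.152). With the arrays of the comparison fitted alone the adjusted p was 0.171. In spretus the same step was 0.07 (-0.13 to 0.27).

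The place of each day 14 array between the mean levels of day 0 and day 56 of its species was computed as a percent for the 3 genes that stayed high. In spretus the day 14 arrays stood at 92.6% ± 5.20 for Flt1, 82.2% ± 3.96 for Abcb1a and 85.6% ± 5.72 for Slc2a1 (SD, n = 3). In musculus they stood at 76.4% ± 11.9, 87.8% ± 26.5 and 106% ± 30.7 for the same genes. These SDs hold the spread of the day 14 arrays alone, since the means of day 0 and day 56 were taken as fixed. The genes are therefore not ranked by these percents. The wide spread in musculus came with 2 arrays: replicate 1 stood at 58.3% for Abcb1a and 73.9% for Slc2a1, and replicate 3 at 109% and 135%. In musculus day 14 replicate 1 only 1 of the 6 genes, Pecam1, was above its group mean, and in replicate 3 all but Pecam1 were. Without replicate 1 the musculus rise to day 14 was 1.71 for Abcb1a and 1.38 for Slc2a1, and both were still called. With 1 array left out the lowest rise was 1.28 for Abcb1a and 1.04 for Slc2a1, and both were called in every case.

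Mfsd2a had another course, with a peak at day 14 in both species. In spretus its log2 values were 8.12, 8.25 and 8.21 on day 0, 8.99, 8.81 and 8.81 on day 14, and 8.07, 7.53 and 8.20 on day 56. In musculus they were 7.92, 7.95 and 7.93 on day 0, 8.86, 9.0 and 8.99 on day 14, and 7.67, 7.61 and 7.996 on day 56. In each species the day 14 arrays were above all arrays of both other ages, while day 0 and day 56 overlapped.

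The rise of Mfsd2a to day 14 was 0.68 ± 0.14 in spretus, or 1.60-fold, and 1.01 ± 0.14 in musculus, or 2.02-fold (log2, SE; limma, adjusted p = 0.000542 and 7.71e-06). From day 14 to day 56 it fell by 0.94 ± 0.14 in spretus (adjusted p = 0.000438) and by 1.19 ± 0.14 in musculus (adjusted p = 2.27e-05). The level at day 14 was thus 1.92-fold that of day 56 in spretus and 2.28-fold in musculus. Over this step only 0.405% of genes in spretus and 0.267% in musculus had a larger absolute change. Between day 56 and day 0 the difference was -0.26 in spretus (95% interval -0.55 to 0.02) and -0.17 in musculus (-0.46 to 0.11), and neither was called. Without spretus day 56 replicate 3 the spretus difference was -0.39 and was called (adjusted p = 0.0302), and without replicate 2 it was -0.06 (adjusted p = 0.727).

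A rise followed by a fall was rare among all genes: it was called for 1.30% in spretus, 1.90% in musculus and 0.664%, or 82 genes, in both. Mfsd2a was the single one of the 6 genes with this course. From day 14 to day 56 it was also the single one to fall in spretus, where 4.16% of all genes fell and 8.13% were called either way. In musculus Mfsd2a and Pecam1 fell, against 6.82% of all genes that fell and 11.9% that were called either way. No member rose in either species over this step (background 3.98% in spretus and 5.08% in musculus).

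**Figure D2:**
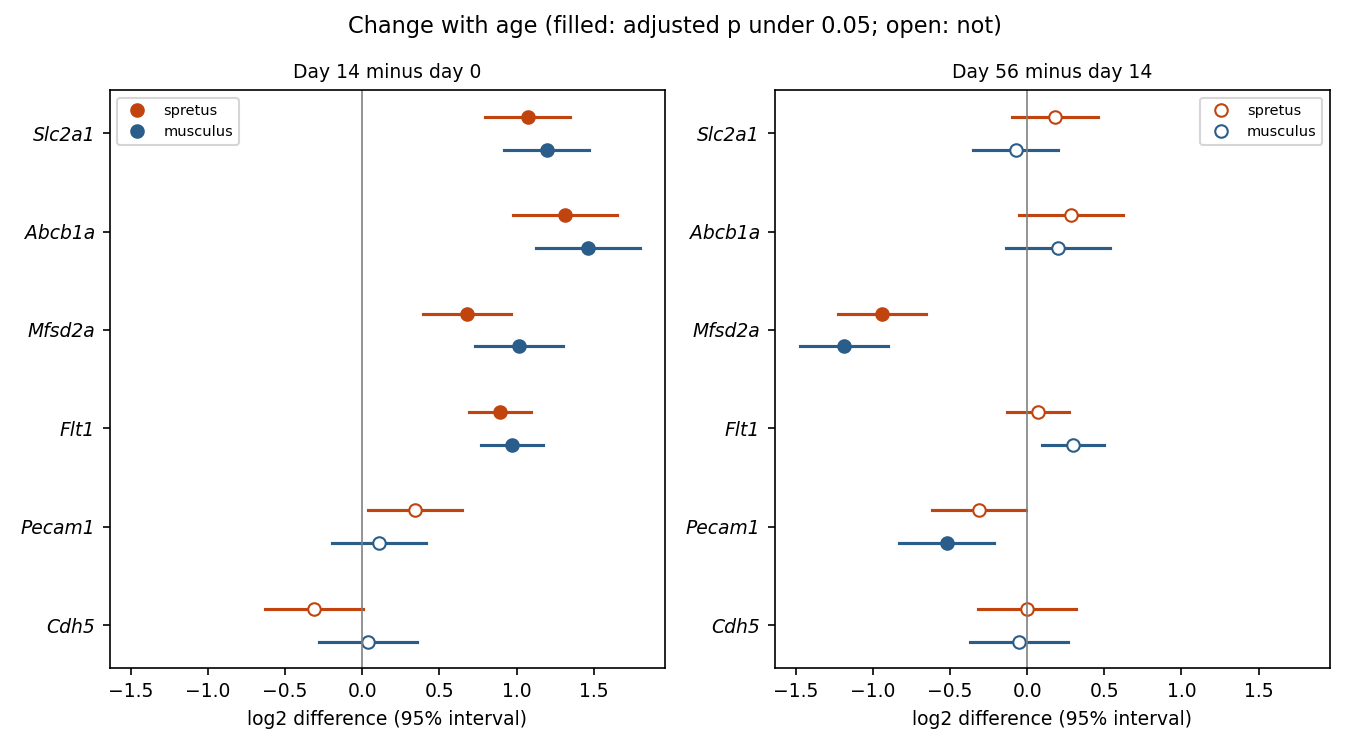
Log2 differences (horizontal axis) of the 6 genes between day 14 and day 0 (left) and between day 56 and day 14 (right) in spretus and musculus; points are limma estimates, lines are 95% intervals, and filled points had an adjusted p under 0.05. On the left Slc2a1, Abcb1a, Mfsd2a and Flt1 are filled in both species; on the right Mfsd2a is filled in both, at -0.94 in spretus and -1.19 in musculus, and Pecam1 in musculus.

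Pecam1 did not rise with the transporters at the threshold used. In spretus its log2 values were 6.28, 6.36 and 6.31 on day 0, 6.64, 6.69 and 6.65 on day 14, and 6.05, 6.59 and 6.40 on day 56. In musculus they were 6.49, 6.60 and 6.47 on day 0, 6.83, 6.58 and 6.48 on day 14, and 6.49, 5.97 and 5.88 on day 56. The spretus day 14 arrays were above all spretus arrays of the other ages, and in musculus the ages overlapped. The share of all genes that separate by age in this way is not given here. The change of Pecam1 was not called as different between the species for either step.

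From day 0 to day 14 the Pecam1 difference was 0.34 in spretus (95% interval 0.04 to 0.65; limma, adjusted p = 0.0712) and 0.11 in musculus (-0.20 to 0.41). With the 6 arrays of the spretus comparison fitted alone it was called (adjusted p = 0.00713). After day 14 it fell by 0.52 ± 0.14 in musculus (adjusted p = 0.0263), and the spretus difference was -0.31 (95% interval -0.62 to -0.01; adjusted p = 0.207). The musculus call was lost without musculus day 14 replicate 1 (-0.42, adjusted p = 0.108) or replicate 2 (-0.55, adjusted p = 0.0523). It was also lost without musculus day 56 replicate 2 (-0.45, adjusted p = 0.102) or replicate 3 (-0.40, adjusted p = 0.12), and with the arrays of the comparison fitted alone (adjusted p = 0.0996).

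Over the whole span, Pecam1 at day 56 was lower than at day 0 by 0.41 in musculus (adjusted p = 0.0266). That call was lost without musculus day 0 replicate 2 (-0.37, adjusted p = 0.0835), without musculus day 56 replicate 2 (-0.34, adjusted p = 0.107) or replicate 3 (-0.29, adjusted p = 0.141), and with the arrays of the comparison fitted alone (adjusted p = 0.0503). In spretus the same difference was 0.03 (95% interval -0.28 to 0.34).

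Cdh5 was the dimmest of the 6 genes, with a mean level above that of 25.01% of genes in musculus at day 56 and of at most 34.1% in any group, close to 4.76, the lower quartile of all gene means. In spretus its log2 values were 5.32, 5.06 and 5.55 on day 0, 5.18, 4.86 and 4.96 on day 14, and 5.10, 5.04 and 4.85 on day 56. In musculus they were 4.65, 4.92 and 4.78 on day 0, 4.58, 5.00 and 4.86 on day 14, and 4.59, 5.09 and 4.62 on day 56. The ages overlapped in both species.

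No change of Cdh5 with age passed the test. Its difference from day 0 to day 14 was -0.31 in spretus (95% interval -0.63 to 0.01; limma, adjusted p = 0.116) and 0.04 in musculus (-0.28 to 0.35). Without spretus day 0 replicate 2 the spretus differences of day 14 and of day 56 from day 0 were both -0.44 and were called (adjusted p = 0.0403 and 0.0369). Without spretus day 0 replicate 3 both were -0.19 (adjusted p = 0.393 and 0.394).

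From day 0 to day 56, 3 of the 6 genes rose in spretus and in musculus, namely Slc2a1, Abcb1a and Flt1. In spretus none of the 6 fell, while of all genes 42.6% were called, 20.6% higher and 22% lower. In musculus Pecam1 fell, while of all genes 46% were called, 22.3% higher and 23.7% lower. Slc2a1 was 2.38-fold higher at day 56 than at day 0 in spretus and 2.18-fold in musculus, and Flt1 1.95-fold in spretus and 2.41-fold in musculus. Over the 6 group means Abcb1a correlated with Flt1 and with Slc2a1 with Pearson's r of 0.99 each, and Flt1 with Slc2a1 with 0.97. These 6 points share the age difference, and 0.729% of the other genes were as close to Abcb1a as Slc2a1 was. The closest member to Mfsd2a over the same 6 points was Pecam1, with r of 0.82, and no other member came above 0.30. The share of all genes as close to Mfsd2a was not computed.

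The unequal course of the genes was also set out within arrays, by subtracting the log2 value of Pecam1 on the same array. Pecam1 was chosen for this after its values were seen, so the differences restate the courses above and are given with no test. Relative to Pecam1, Slc2a1 was higher at day 14 than at day 0 by 0.73 in spretus and by 1.09 in musculus, and Abcb1a by 0.97 and 1.35. Flt1 was higher relative to Pecam1 by 0.55 in spretus and by 0.86 in musculus over this step, and Mfsd2a by 0.33 and 0.90. Pecam1 itself differed by 0.34 in spretus and by 0.11 in musculus over this step.

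After day 14 Pecam1 itself differed by -0.31 in spretus and by -0.52 in musculus, which enters each relative value with the opposite sign. The relative level of Mfsd2a was lower by 0.63 in spretus, and by 0.67 in musculus, where the arrays overlapped. The spretus day 56 values of Mfsd2a relative to Pecam1 were 2.02, 0.94 and 1.80, with replicate 2 far the lowest. Over this step Slc2a1, Abcb1a and Flt1 were higher relative to Pecam1 by 0.49, 0.60 and 0.38 in spretus, and by 0.45, 0.72 and 0.82 in musculus, where the arrays overlapped. Slc2a1 of musculus, for one, was 0.45 higher relative to Pecam1, while its own level differed by -0.07.

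**Figure D3:**
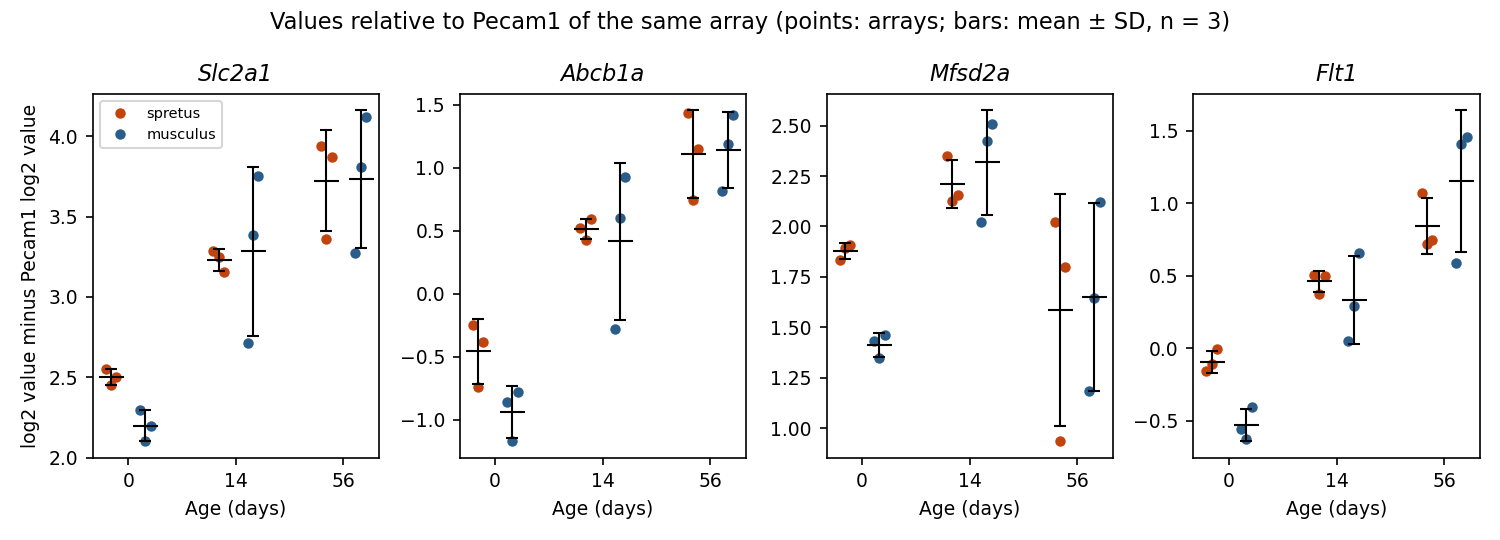
Log2 value minus the Pecam1 log2 value of the same array (vertical axis) for 4 genes at days 0, 14 and 56 (horizontal axis) in spretus and musculus; points are arrays, and bars give the mean and SD of 3 arrays. In all 4 genes and both species the day 14 arrays lie above the day 0 arrays, and the mean of Mfsd2a is lower at day 56 than at day 14, with overlap between the arrays of musculus.

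The species were compared at each age. At birth 1 of the 6 genes, Cdh5, was called, and it was higher in spretus, against 7.44% of all genes called higher and 14.3% called either way. At day 14 and at day 56 none of the 6 was called, against 13.1% and 14.3% of all genes. By an unadjusted p under 0.05, 2 of the 6 were below it at day 0, Cdh5 and Flt1, against 26.2% of all genes by limma. At days 14 and 56 the count was 0, against 26.8% and 27.8% of all genes.

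Cdh5 at day 0 averaged 5.31 ± 0.25 in spretus and 4.78 ± 0.13 in musculus (log2, SD, n = 3), and the arrays of the species did not overlap. The difference was 0.53 ± 0.15, or 1.44-fold (SE; limma, adjusted p = 0.0245). It was lost without spretus day 0 replicate 1 (0.53, adjusted p = 0.0631) or replicate 3 (0.41, adjusted p = 0.122), and without musculus day 0 replicate 1 (0.46, adjusted p = 0.0896) or replicate 3 (0.53, adjusted p = 0.0653). At days 14 and 56 the Cdh5 differences were 0.18 (95% interval -0.13 to 0.50) and 0.24 (-0.08 to 0.55).

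At birth the values of the other genes also stood mostly above in spretus. Slc2a1, Mfsd2a and Flt1 of spretus, like Cdh5, lay above those of musculus without overlap, which 16.2% of all genes did, and Pecam1 lay below without overlap, which 14.4% did. The sizes were small, 0.10 for Slc2a1, 0.26 for Mfsd2a and 0.23 for Flt1, with adjusted p of 0.721, 0.246 and 0.13 by limma. Pecam1 differed by -0.21 (adjusted p = 0.411), and Abcb1a by 0.27 with overlap (adjusted p = 0.306). The median log2 difference of the 6 genes was 0.24, against 0.02 over all genes.

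At day 14 the differences of the 6 genes between the species lay between -0.08 for Mfsd2a and 0.18 for Cdh5, and all groups overlapped, while 30.6% of all genes had no overlap. At day 56 they lay between -0.07 for Flt1 and 0.24 for Pecam1, and only Abcb1a had no overlap, with 0.20 higher in spretus (95% interval -0.13 to 0.54), against 17% of all genes higher without overlap. For Slc2a1 the day 56 interval was -0.05 to 0.50 and for Mfsd2a -0.12 to 0.46. Without spretus day 56 replicate 2 Mfsd2a was called higher in spretus at day 56 (0.37, adjusted p = 0.0365), and without replicate 3 its difference was 0.04 (adjusted p = 0.909). Without musculus day 56 replicate 1 Pecam1 was called higher in spretus (0.43, adjusted p = 0.0441), and without spretus day 56 replicate 2 its difference was 0.11 (adjusted p = 0.722).

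**Figure D4:**
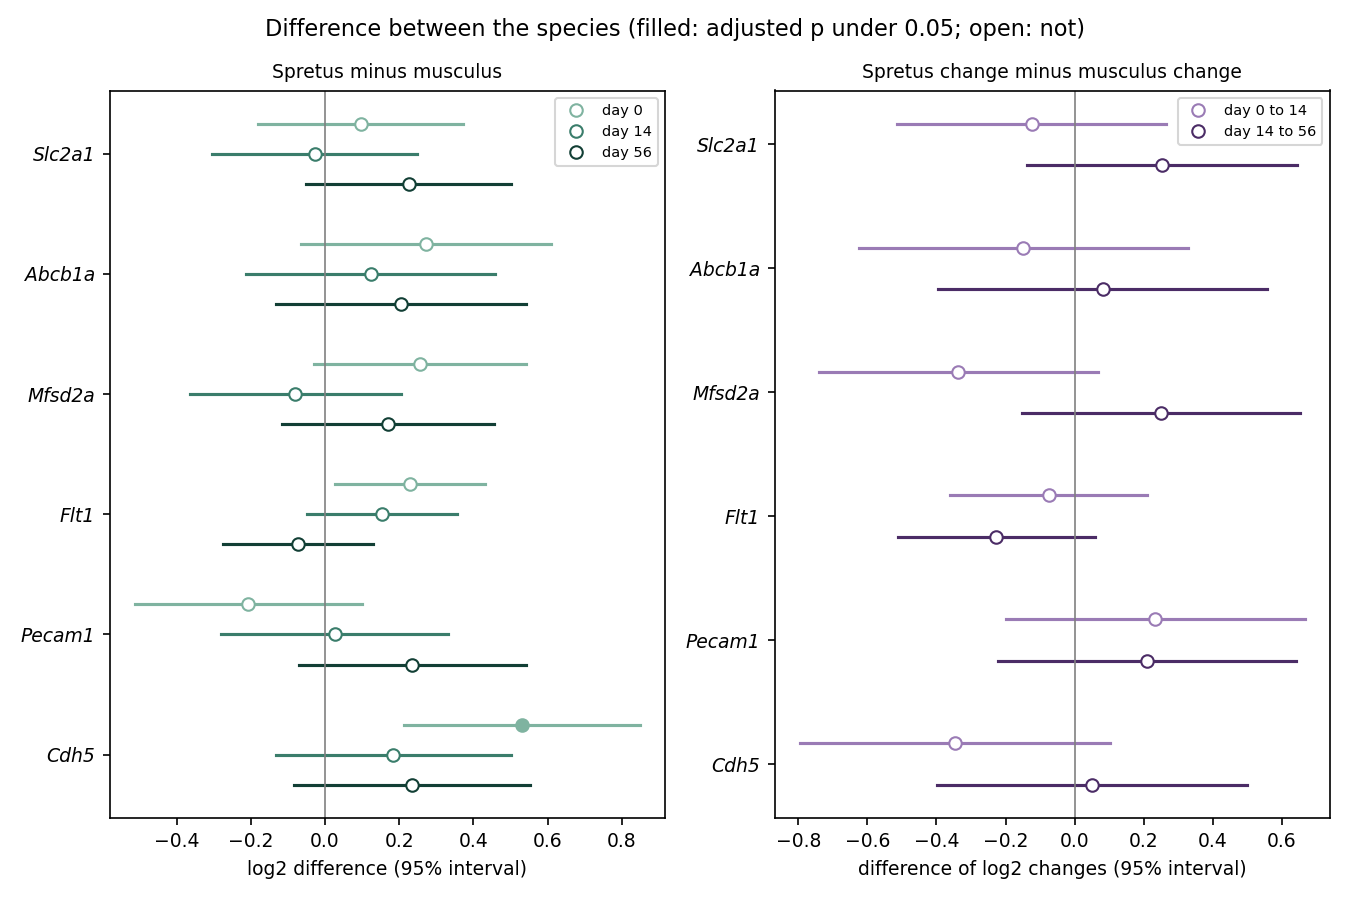
Log2 differences between spretus and musculus (left, horizontal axis) at days 0, 14 and 56, and differences of the log2 changes between the species (right, horizontal axis) for the steps from day 0 to 14 and from day 14 to 56; points are limma estimates and lines are 95% intervals. Only Cdh5 at day 0 is filled, at 0.53 with an adjusted p of 0.0245, and all intervals on the right include 0.

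Whether the course differed between the species was tested as the spretus change minus the musculus change. None of the 6 genes was called for the step from day 0 to day 14, where 1.11% of all genes were, or for the step from day 14 to day 56, where 0.0405% were. By limma's unadjusted p under 0.05 the count was also 0 for either step, against 13.3% of all genes for the first and 10.8% for the second. For the first step the estimate was -0.34 for Mfsd2a (95% interval -0.74 to 0.07), -0.35 for Cdh5 (-0.80 to 0.10) and 0.23 for Pecam1 (-0.20 to 0.67). It was -0.12 for Slc2a1 (-0.51 to 0.27), -0.15 for Abcb1a (-0.62 to 0.33) and -0.07 for Flt1 (-0.36 to 0.21), and the sign of these 3 turned when some single arrays were left out. For the second step it was 0.25 for Mfsd2a (-0.15 to 0.65), 0.25 for Slc2a1 (-0.14 to 0.64) and 0.21 for Pecam1 (-0.22 to 0.64). It was -0.23 for Flt1 (-0.51 to 0.06), 0.08 for Abcb1a (-0.39 to 0.56) and 0.05 for Cdh5 (-0.40 to 0.50), and for Abcb1a and Cdh5 the sign turned when some single arrays were left out. These intervals bound a difference between the species but do not show that the changes are alike.

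The authors deposited a list of masked probes. It held 1 masked probe for Pecam1, 2 each for Abcb1a and Mfsd2a, 3 for Cdh5, 6 for Slc2a1 and 7 for Flt1, and the median was 2 among genes with any. The number of probes kept per gene is not given in the sources used here. Cdh5, the gene called between the species at birth, had 3, and the part of the masked probes in that result was not tested.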

How the data were processed

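Per the labels' protocols, biotin-labelled material from the RNA of single brains was run on Affymetrix mouse genome arrays. The authors deposited 1 log2 value per Ensembl gene and array, already normalized between arrays; the sources used here do not give the method or any filter. The log2 base was inferred from the deposited values, which run from 2.89 to 13.82. A second deposited list gave masked probes, whose reason is not stated, and was used to count them.

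A mean for each of 6 groups was fitted to all 18 arrays and 12346 genes with limma 3.58.1 in R 4.3.3 (lmFit, contrasts.fit, eBayes). Tests were two-sided, with Benjamini-Hochberg adjustment over all genes within a comparison, and 17.1 degrees of freedom after moderation. The 95% intervals are limma's and are not adjusted. The labels call each sample an individual. The precision is limited by 3 arrays a group. The procedure was also run on simulated data with independent noise of equal spread in all groups, so unequal spreads between groups were not tried.

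Every member in the table is named, by the symbol its Ensembl ID was given with. The genes most like them were taken by the correlation over group means. The members and lists were chosen with earlier results of these data known. The 6 pathway lists and 7 lists of other cell types had 0 symbols that could be matched, since 0 of 49997 reference genes carried an Ensembl ID, and were not used. Replicate numbers occur in every group. Arrays of the same number did not deviate together: r over genes ran from -0.16 to 0.15 and was over 0.1 in 4 of 45 pairs, so the numbers were not treated as pairs. Alternatives were the arrays of a comparison alone, quantile normalization, median centring, no dim genes, no genes with 7 or more masked probes, an intensity trend, the replicate block and each array left out.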

Additional observations from a re-analysis of the deposited data

How the results depend on the processing

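Of 19 called values of single genes, 0 reversed and 0 moved by over 1.5 times under 243 alternatives, and the call was lost in 13, all of them for Pecam1 in musculus or Cdh5 on day 0. The number of members called for day 56 against day 14 in musculus was 2, against 1 with the arrays of the comparison alone and 1 to 3 with 1 array left out. With 1 array left out, 0 to 1 members were called between the species at day 0 and likewise at day 56. With the replicate block the calls were as in the unpaired fit, except that Flt1 was called after day 14 in musculus (adjusted p = 0.0403 by limma), so that 3 members were called there. By its deviations from the group mean, an array correlated best with its own number in another group in only 35 of 90 cases, with 3 numbers to match. Flt1 was also called in this step after quantile normalization (adjusted p = 0.0442) and without the dimmest genes, those under 4.76 (adjusted p = 0.0352). Flt1, with 7 masked probes, had no value in the alternative without such genes.

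Counts over all genes moved more. With the arrays of a comparison alone, 645 against 1004 genes were called from day 14 to day 56 in spretus, 746 against 1469 in musculus, and 993 against 1622 between the species at day 14. For the differences in change, 62 against 137 and 1 against 5 were called. With genes of at least 7 masked probes left out, 1135 against 1770 were called between the species at day 0, 1010 against 1622 on day 14, and 83 against 137 and 3 against 5 for the differences in change; fewer genes were tested. Quantile normalization gave 8 against 5 for the later difference in change. With 1 array left out the spretus step after day 14 dropped to 535 without day 14 replicate 2, 627 without day 14 replicate 3, 548 without day 56 replicate 2 and 610 without day 56 replicate 3. Between the species at day 14, 1052 were called without spretus day 14 replicate 2. The differences in change gave 63 to 78 against 137 in 6 of these settings from day 0 to 14, without day 0 replicate 1, 2 or 3 or day 14 replicate 1 or 2 of spretus or day 14 replicate 3 of musculus. From day 14 to 56 they gave 3 to 11 against 5, with 3 without spretus day 56 replicate 1, 8 without musculus day 14 replicate 1 or 3, and 11 without musculus day 56 replicate 1. The cause of these shifts was not tested.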

Other observations

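Over all genes, the 2 whose 6 group means were closest to the mean of the 6 standardized members were ENSMUSG00000040163, with Pearson's r of 0.994, and ENSMUSG00000031517, with 0.991. These 2 were picked as the highest, over 6 points that share the age difference, so the size of r is not a result. No name is given for either ID here. The list of masked probes held 4 probes each for Cldn5 and Kdr, 3 for Slco1a4 and 2 for Slco1c1. Mfsd2a and Pecam1 had their largest spread between arrays at day 56. For Mfsd2a the SD was 0.36 in spretus and 0.21 in musculus at that age, and for Pecam1 0.28 and 0.33, on the log2 scale with 3 arrays each. The low Mfsd2a array of spretus day 56, replicate 2 at 7.53, was the one with the high Pecam1 value of its group, 6.59.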
